A study of Danio rerio with 2 samples.

Results

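Vesicle trafficking genes encode the machinery that moves proteins and membrane between the compartments of a cell. The 107 genes described here were chosen by symbol from the array's platform annotation. They are those named rab with a digit, arf, sec with a digit, vps, snx or cop, leaving out the cops genes of the signalosome. They are 107 of 8793 genes with a single symbol, and 128 of 15502 probe sets that are not manufacturer's controls. Where a gene had several probe sets, the one with the highest mean over both arrays stood for it. The rule picks genes by name only, and within the rule measured values enter only in that choice of probe set. The members were chosen with earlier results of these data known. Most of these names belong to vesicle traffic, but the sec genes also include the channel through which new proteins enter the endoplasmic reticulum, which is upstream of vesicle traffic.

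In the atropine group, adult zebrafish had about 20% of the ventricle removed at the apex and were exposed to atropine, which blocks muscarinic acetylcholine receptors. In the water group, adult zebrafish had the same amputation and were exposed to water. Whole hearts were collected 24 hours later, and 15 hearts were pooled for each of the 2 Affymetrix arrays, 1 per group. The labels do not state strain, sex, the dose of atropine or the start of exposure. Both groups carry the injury, and there is no uninjured heart, so every difference below is between 2 injured pools. With 1 array per group there are no replicates, no p-value and no SD between samples. The differences describe these 2 pools only, and having so few arrays limits their precision.

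Cargo leaves the endoplasmic reticulum in COPII-coated vesicles, and COPI-coated vesicles carry material back from the Golgi apparatus. Arf and Rab GTPases switch coats and tethers on at particular membranes. In the endosomal system, sorting nexins and retromer send receptors back to the surface or the Golgi, ESCRT complexes sort others inward, and the HOPS tether joins late endosomes to lysosomes. These roles are known mostly from yeast and mammalian cells.

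The platform checks and the makeup of the tissue touch every value below. Deposited log2 values ran from 2.02 to 14.05, and their sorted values matched between the arrays to within 0.149. Of 15 cardiomyocyte markers, 8 had a probe set and 7 passed the level filter described below. Of these 5 were below 0 and 1 was at least 1.5-fold lower, while myl7 stood at 13.21 in atropine and 13.23 in water. The summed linear signal of that list was 36554 in atropine and 38909 in water. Red blood cell markers summed to 15847 in atropine and 12122 in water, with 4 of 8 at least 1.5-fold higher. Neutrophil markers summed to 1858 in atropine and 2601 in water, with 5 of 8 at least 1.5-fold lower. The macrophage list summed to 2242 and the matrix list to 916 in atropine, against 3452 and 1461 in water. In the macrophage list 2 of 9, and in the matrix list 3 of 7, were at least 1.5-fold lower, and all 17 red cell and macrophage markers with a probe set passed the filter. The endothelial list, with 3 markers measured, summed to 459 in atropine and 478 in water. In such bulk samples, fewer cells of a type and less RNA per cell cannot be told apart. The part of these cell types in the trafficking values was not tested.

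No trafficking gene differed by 1.5-fold in either direction between atropine-exposed and water-exposed hearts. The level filter asked that a gene reach 4.05, the median of all non-control values, on at least 1 array. Of the 107 trafficking genes 86 did so, as did 5294 of all 8793 genes. Among all genes compared, 1.87% were at least 1.5-fold higher in atropine and 2.12% at least 1.5-fold lower, together 3.99%. The trafficking genes ranged from -0.38 to 0.42 in their log2 difference, atropine minus water, and had a median of 0.01. All genes compared had a median of -0.01. Scaling to the polyadenylated spike-in transcripts, which had a median difference of -0.48 over 13 probe sets, would put the median of all genes at 0.47 and that of the trafficking genes at 0.49. It would also bring 23 members to 1.5-fold higher, beside 28.6% of all genes. Differences are given as deposited, without re-centring, and so are set beside the all-gene median of -0.01.

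The trafficking genes also spread less widely than the array as a whole. The SD of their differences was 0.17 across 86 genes, against 0.27 across all 5294, where genes are not replicates. Differences under 0.1 in size were found in 45 members (52.3%) and in 36.2% of all genes. At a log2 difference of 0.32 in size, a lower threshold, 7 members (8.14%) differed in either direction, beside 16.8% of all genes. In 3 bands of rising mean level, 17.2%, 16.8% and 16.6% of all compared genes passed that lower threshold. In the same bands 1 of 21, 4 of 31 and 2 of 34 members did so. Whether this narrower spread is particular to the trafficking genes was not tested.

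**Figure D1:**
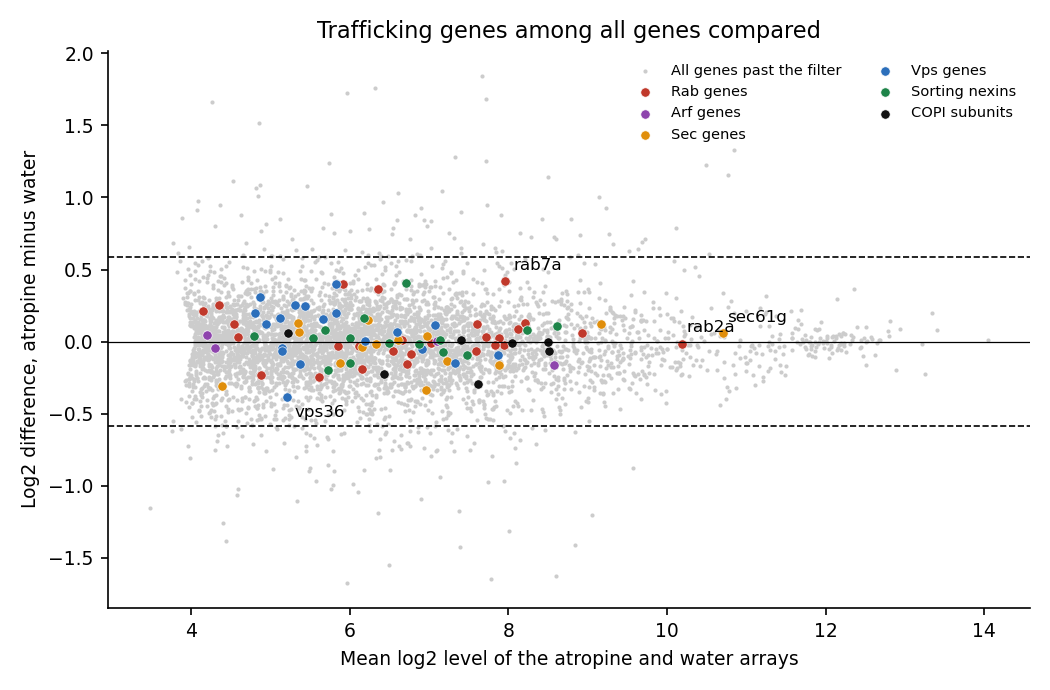
Log2 difference (atropine minus water) against the mean log2 level of both arrays. Grey points are all 5294 genes compared and coloured points the 86 trafficking genes by name group. Dashed lines mark 1.5-fold, and every trafficking gene lies between them, from -0.38 (vps36) to 0.42 (rab7a).

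**Figure D2:**
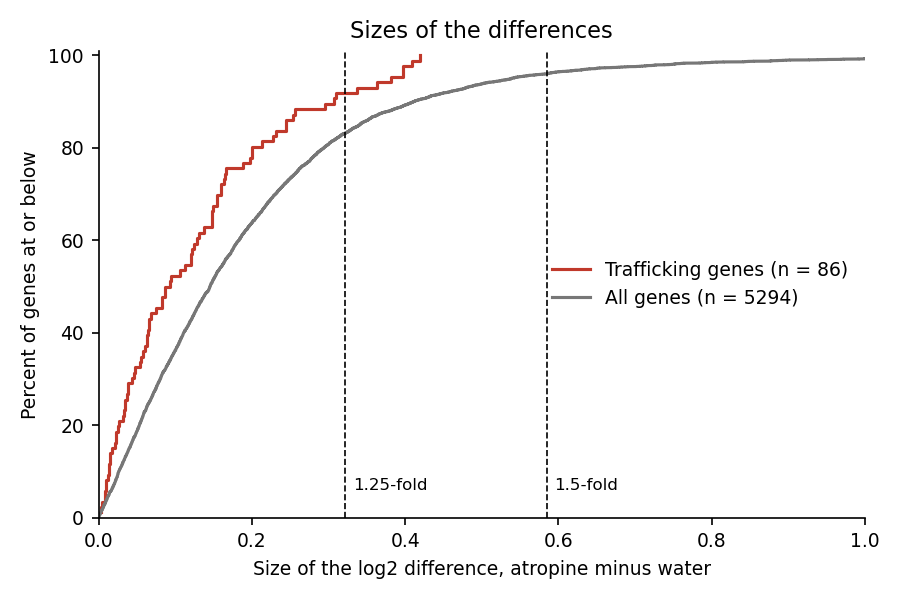
Cumulative percent of genes against the size of the log2 difference, for the 86 trafficking genes and all 5294 genes compared. The axis ends at 1. The trafficking curve lies to the left, with 8.14% of members beyond 0.32 (the left dashed line), against 16.8% of all genes, and no member beyond 1.5-fold.

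The 7 members beyond 0.32 (log2) were 5 higher and 2 lower in atropine, beside 7.42% higher and 9.43% lower among all genes. The 5 higher ones were the Rab genes rab7a, rab5b and rab35b, the sorting nexin gene snx27b and the tether gene vps18. The 2 lower ones were vps36 and sec24a. An offset of 16 on the linear scale left rab7a and snx27b higher and none lower, beside 4.33% higher and 5.61% lower among all genes. Scaling to the cardiomyocyte markers gave 9 higher and none lower, beside 13.5% higher and 5.53% lower among all genes.

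Of the 40 rab genes, 36 encode GTPases of the Rab family and the others encode partners such as rab3gap2, part of a Rab activator. A total of 27 passed the filter. They had a median of 0.01, and 15 of them (55.6%) lay within 0.1 of 0, beside 36.2% of all genes. A difference of at least 0.32 in size was found in 3 (11.1%), beside 16.8% of all genes. Of the 27, 3 were higher in atropine and 0 lower, beside 7.42% higher and 9.43% lower among all genes. The gene rab7a encodes the GTPase that directs late endosomes to lysosomes. It stood at 8.17 in atropine and 7.75 in water, a 1.34-fold difference and the largest among the members compared. The early endosome gene rab5b stood at 6.12 in atropine and 5.72 in water, 1.32-fold higher. Its relatives were closer to 0. The log2 difference was 0.09 for rab5aa, 0.13 for rab5ab and -0.06 for rab5c, all picked with their values in view. These genes are related in sequence, and whether their probes separate them is unknown. The recycling gene rab35b stood at 6.54 in atropine and 6.18 in water, 1.29-fold higher. Its only probe set ends in _a_at, a kind left out under an alternative probe set rule. The gene rab18a, whose product acts on the endoplasmic reticulum and lipid droplets, stood at 4.48 in atropine and 4.22 in water.

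The 2 Rab genes of highest signal differed little, while rab7a, also well above the filter at a mean level of 7.96, differed by 0.42. The gene rab2a, which acts between the endoplasmic reticulum and the Golgi, stood at 10.19 in atropine and 10.20 in water. The recycling endosome gene rab11ba stood at 8.96 in atropine and 8.91 in water. Neither differed by as much as 0.1 (log2). The lowest Rab differences were in rab32a, of lysosome-related organelles, at 5.49 in atropine and 5.73 in water, and in rab28, at 4.77 in atropine and 5.002 in water. Neither reached the lower threshold. Among Rab genes in between, rab12, picked with its value in view, differed by 0.21. It stood at 4.26 in atropine and 4.04 in water, and its value in water lies below the filter.

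Among the early secretory coats, 0 of 7 COPI genes and 1 of 7 COPII genes passed the lower threshold, beside 16.8% of all genes. All 7 COPI genes passed the filter, with a median of -0.01, and 5 (71.4%) lay within 0.1 of 0, beside 36.2% of all genes. Of the 7, 2 were above 0 and 4 above the all-gene median. The subunit genes copa and cope stood at 8.48 and 8.502 in atropine, against 8.55 and 8.505 in water. A dimmer second probe set of copa, also past the filter, went the other way, at 0.11. The lowest COPI difference was in copz1, at 7.47 in atropine and 7.77 in water (1.23-fold lower). Next was copb2, at 6.31 in atropine and 6.54 in water (1.17-fold lower). The probe set used for copb2 is of a kind that can take up related transcripts, and a second one differed by -0.10. Of the 8 COPII genes 7 passed the filter, with a median of 0.04. The cargo adaptor gene sec24a stood at 6.79 in atropine and 7.13 in water, 1.26-fold lower. Its paralogs sec24b and sec24c, picked with their values in view, differed by 0.01 and 0.15. The 4 arf genes all passed the filter, with a median of -0.02. The GTPase gene arf5 stood at 8.50 in atropine and 8.66 in water, 1.12-fold lower, and the Arf-binding arfaptin gene arfip1 at 7.10 in atropine and 7.09 in water.

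Among the remaining sec genes, sec61g and sec61a1a encode subunits of the protein-conducting channel of the endoplasmic reticulum. The gene sec61g stood at 10.74 in atropine and 10.68 in water. The gene sec61a1a stood at 9.23 in atropine and 9.10 in water, while its paralog sec61a1b, picked with its value in view, differed by -0.15. For sec22a the values were 4.23 in atropine and 4.54 in water, 1.24-fold lower and close to the filter.

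**Figure D3:**
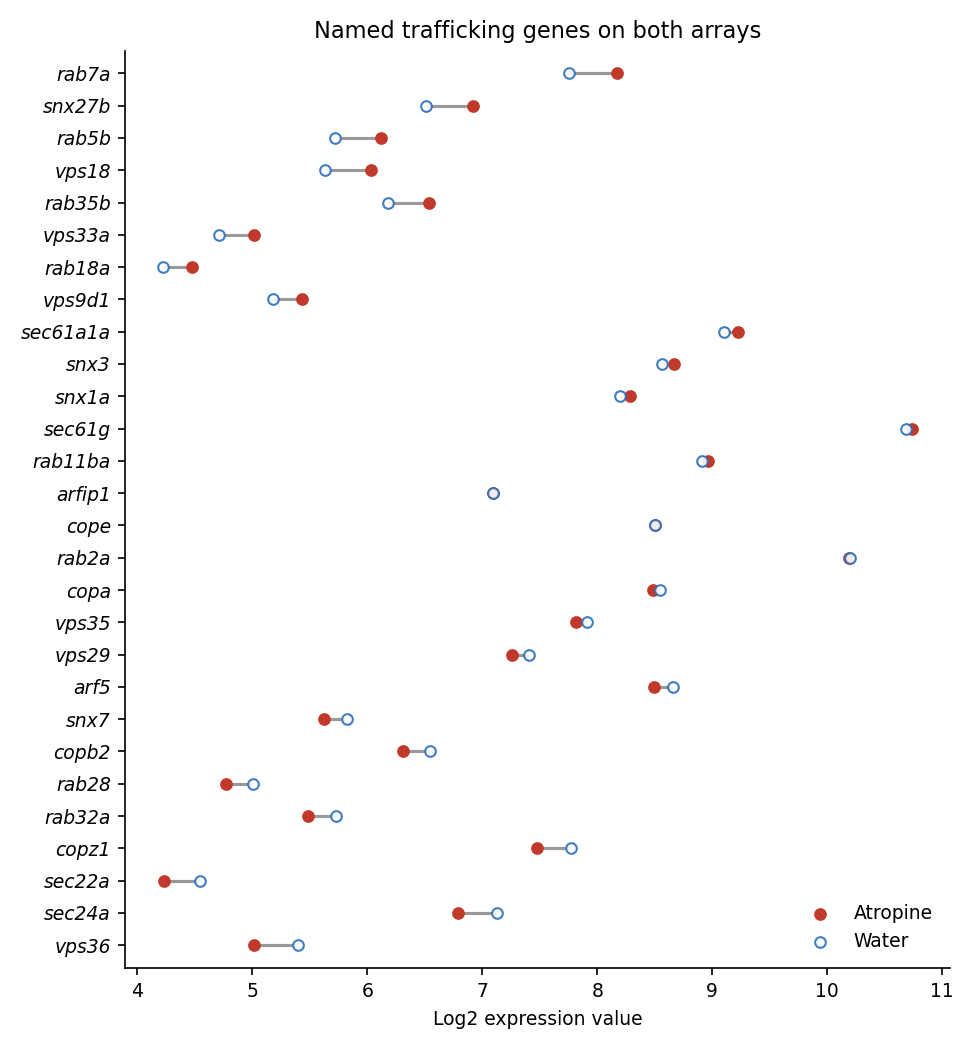
Log2 expression values of 28 trafficking genes on the atropine array (filled red) and the water array (open blue), ordered by their difference. Genes are the 8 highest and 8 lowest differences and 2 high-signal genes of each of 6 name groups. The widest gaps are 0.42 (rab7a) and -0.38 (vps36), and cope, arfip1 and rab2a overlap.

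The vps genes, first found in yeast by their effect on sorting to the vacuole, had the highest median of the name groups at 0.11, with 12 of 19 above 0. Among all genes compared, 47.8% were above 0. Their complexes lay on different sides of it. Small complexes are given in full below, and members outside the naming rule were named after their values were seen. Of the HOPS and CORVET tether genes, which act in fusion of endosomes with each other and with lysosomes, 5 of 6 passed the filter and had a median of 0.16. The core subunit genes vps18 and vps33a stood at 6.03 and 5.02 in atropine, against 5.63 and 4.71 in water. The HOPS gene vps41 differed by 0.16, the core gene vps16 by -0.05 and the CORVET gene vps8 by -0.07. The 3 GARP genes vps51, vps52 and vps53, for the tether that receives endosomal vesicles at the Golgi, differed by 0.12, 0.24 and 0.16. A second probe set of vps52, below the filter, differed by -0.06. The median level was 5.13 for GARP and 5.15 for HOPS and CORVET genes, against 6.46 for all members compared. With the filter at the upper quartile, 0 GARP genes and 1 HOPS and CORVET gene remained. The gene vps9d1, whose product has a domain found in activators of Rab5, stood at 5.43 in atropine and 5.18 in water. Its other 3 probe sets, all below the filter, differed by 0.17, -0.08 and -0.20.

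Retromer, which retrieves receptors from endosomes, lay below 0 in 4 of 5 genes. Above 0 was 1 of the 5 (20%), beside 47.8% of all genes compared. The core genes vps35 and vps29 stood at 7.82 and 7.26 in atropine, against 7.91 and 7.41 in water. The paralogs vps26a and vps26b differed by -0.05 and -0.15 and vps26bl by 0.20. The median was -0.09, as was that of the cardiomyocyte markers (-0.09). Scaling to those markers would put retromer at 0 and the median of all genes at 0.08. The retromer median minus that of all genes was -0.08 with and without that scaling. Of 4 ESCRT genes, vps36, an ESCRT-II subunit, stood at 5.02 in atropine and 5.40 in water, 1.303-fold lower and the lowest difference among the members compared. The ESCRT-I genes vps28 and vps37a differed by 0.07 and 0.00, and vps4b, for the ATPase that takes ESCRT apart, by 0.11.

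Sorting nexins bind endosomal lipids and shape or select what leaves. Of 20 genes 15 passed the filter, with a median of 0.02, and 10 (66.7%) lay within 0.1 of 0, beside 36.2% of all genes. The gene snx27b encodes a nexin that, in mammalian cells, links cargo receptors to retromer. It stood at 6.92 in atropine and 6.51 in water, 1.33-fold higher, on its only probe set. The retromer partners snx3 and snx1a stood at 8.67 and 8.28 in atropine, against 8.56 and 8.20 in water. The gene snx7 stood at 5.62 in atropine and 5.82 in water, and its second probe set went the other way, at 0.05.

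**Figure D4:**
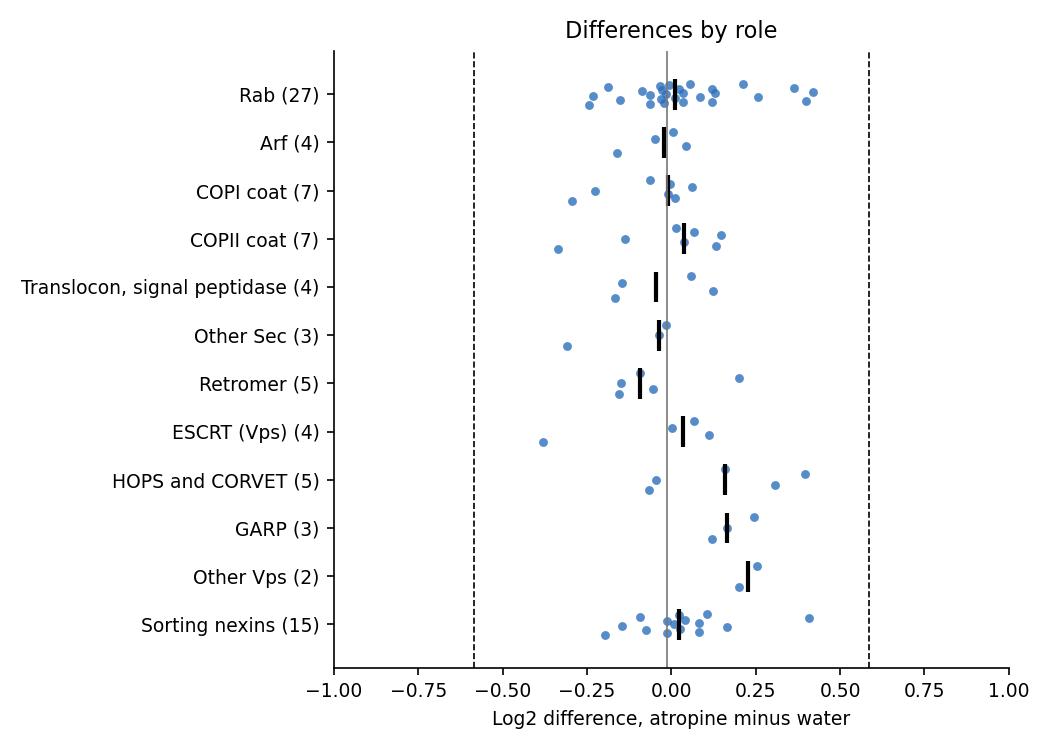
Log2 differences (atropine minus water) of the 86 trafficking genes by role, 1 point per gene, with the number of genes in brackets and a black bar at each median. The grey line is the median of all genes (-0.01) and dashed lines mark 1.5-fold. Points of retromer lie mostly below the grey line and those of GARP above it.

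Second probe sets show how far these small differences can be read. For 7 members the brightest 2 probe sets both passed the filter, and 3 of 7 pairs had the same direction (42.9%, 95% Wilson interval 15.8 to 75). Over all 648 such genes the share was 71.5%. The gap between the 2 differences had a median of 0.18 in members and 0.12 in all genes, with a 90th percentile of 0.32 in all genes. Of the members compared, rab7a, snx27b, rab5b, vps18, rab35b, vps36 and sec24a differed by more than that percentile, and each has a single probe set. They are the same 7 that passed the lower threshold, 8.14% of members, beside 16.8% of all genes. The percentile (0.316) and the lower threshold (0.322) nearly coincide, so this is not a separate check. Probe sets of a gene measured the same RNA pools, so the gaps between them do not cover the spread between fish. Whether these gaps hold more than measurement error was not tested.

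Trafficking genes outside the 6 name groups also spread less widely than all genes, with an SD of 0.20 against 0.27. Lists defined by the start of the symbol, not by known function, held 105 such genes, so a list name may not suit every gene in it. Of these 84 passed the filter, with a median of 0.05 and 61.9% above 0, beside 47.8% of all genes. Among the members compared the median was 0.01, with 53.5% above 0. At the lower threshold 7.14% of the 84 differed in either direction, beside 8.14% of members and 16.8% of all genes. In ESCRT partner genes, the chmp subunits and their recruiters, 9 of 11 were above 0. The same held for 7 of 9 Golgi tether genes, 5 of 7 TRAPP genes, 13 of 20 clathrin and adaptor genes, 9 of 16 SNARE and helper genes and 6 of 11 cargo receptor genes. It held for 2 of 4 Rab helper genes, 1 of 3 exocyst genes, 0 of 2 dynamin genes and not for sar1b, the only Sar1 gene measured. None of the 84 was 1.5-fold higher, beside 1.87% of all genes, and 1 (1.19%) was 1.5-fold lower, beside 2.12% of all genes. It was snap23.1, named after its value was seen, a relative of mammalian SNAP23, a SNARE of the plasma membrane that acts in secretion. It stood at 5.74 in atropine and 6.63 in water, 1.85-fold lower. The neutrophil and macrophage lists above were lower on the same array, and their part in the snap23.1 value was not tested. The largest difference upward was in cog8, a subunit of a Golgi tether, at 4.35 in atropine and 3.82 in water. It was also named after its value was seen, and its value in water lies below the filter.

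**Figure D5:**
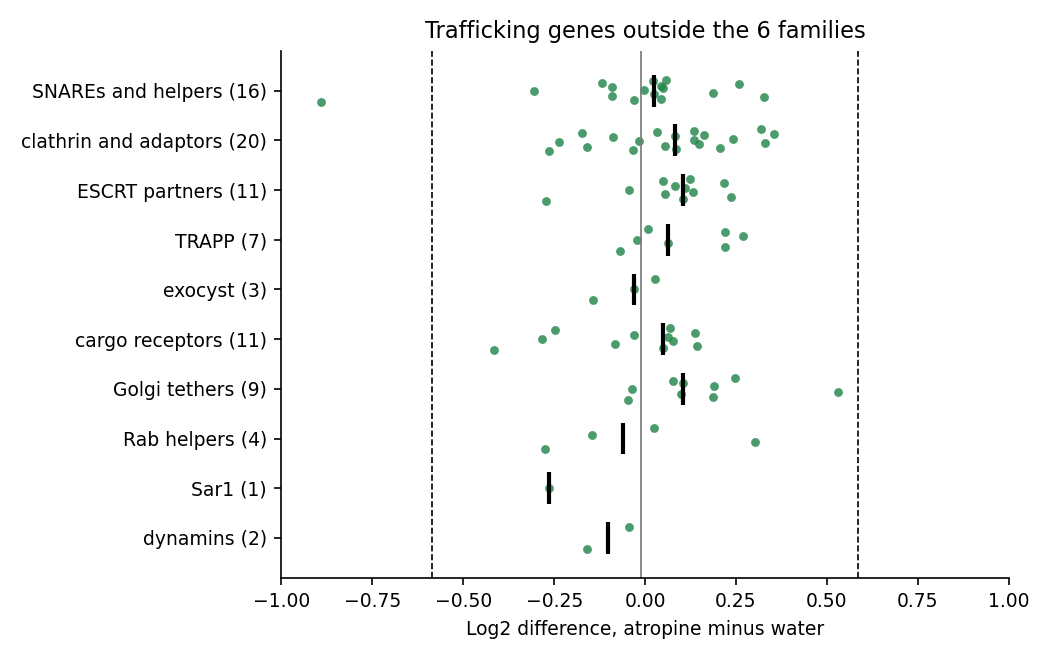
Log2 differences (atropine minus water) of 84 trafficking genes outside the rab, arf, sec, vps, snx and cop names, by list, 1 point per gene, with the number of genes in brackets and a black bar at each median. Dashed lines mark 1.5-fold. The point at -0.89 is snap23.1, and the one at 0.53 is cog8.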

How the data were processed

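The deposited table gives 1 log2 value per probe set and array. How the authors summarized and normalized them is not given in the sources used here. That the values are log2 was judged from their range. The near-equal distributions are what scaling the arrays to each other before deposit would give, but whether that was done is unknown. If it was, a global change in RNA content would not be seen. Arrays have no read depth. Gene symbols came from the platform annotation, and all 107 members matched a gene of the GRCz12tu RefSeq table by Entrez identifier. Of 15502 non-control probe sets, 135 with several symbols and 4572 with none were not named.

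The difference was atropine minus water, and a fold is 2 to the power of its size. Without replicates no test was possible. The named genes are all members at least 1.5-fold apart (none), the 8 highest and 8 lowest differences, and 2 high-signal genes of each name group. The members and lists were chosen with earlier results of these data known. Alternatives were 5 scalings (median, quantile, loess with span 0.4, cardiomyocyte markers, spike-ins), 2 level filters, an offset of 16, 2 probe set rules and thresholds of 1.25-fold (0.32 on the log2 scale) and 2-fold. The functions were tested on simulated data. The planted differences were larger than any among the members, so that test does not cover differences as small as theirs. A planned motif search and sequences were not analysed here. The software was Python 3.11.15 with matplotlib 3.10.9, statsmodels 0.14.6, pandas 2.3.3, numpy 2.4.6 and scipy 1.17.1.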

Additional observations from a re-analysis of the deposited data

How the results depend on the processing

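No member reached 1.5-fold in either direction under median centring, quantile normalization, loess, scaling to cardiomyocyte markers, both other level filters, the offset, or both probe set rules. The exception was scaling to the spike-ins, with 23 higher and 0 lower, beside 28.6% and 0.302% of all genes. That scaling adds a constant to every difference. At the lower threshold (0.32, log2) 5 members were higher and 2 lower as deposited, beside 7.42% and 9.43% of all genes. The median of the members, 0.01 as deposited, was 0.10 with the cardiomyocyte scaling, 0.49 with the spike-in scaling and -0.0058 with the filter at the upper quartile. The counts at that lower threshold, examined under other settings after seeing the data, were 9 higher and 0 lower with the cardiomyocyte scaling (13.5% and 5.53% of all genes), 75 higher and 0 lower with the spike-in scaling (74.9% and 0.68%), and 2 higher and 0 lower with the offset (4.33% and 5.61%). With the mean over probe sets copb2 joined the lower members, for 3 in all, beside 8.79% of all genes. Without the probe sets ending in _x_at, _s_at or _a_at, rab35b was lost, for 4 higher, beside 7.49% of all genes. With the upper quartile filter, which vps36 does not pass, 1 was lower, beside 9.84% of all genes. Of trafficking genes outside the rule, 0 were 1.5-fold higher and 1 lower as deposited, beside 1.87% and 2.12% of all genes. With the cardiomyocyte scaling 1 was higher, beside 2.97% of all genes. The spike-in scaling gave 27 higher and 0 lower, beside 28.6% and 0.302% of all genes. The lower threshold gave 4 higher and 2 lower, beside 7.42% and 9.43% of all genes. At 2-fold 0 were lower, beside 0.359% of all genes. The share of probe set pairs with the same direction was 85.7% with the cardiomyocyte scaling and 100% with the spike-in scaling, since a constant pushes small values to one side. Among the 28 named genes, none that had a value moved by more than the spread between probe sets of a gene outside the spike-in scaling. Under that scaling all 28 did and 14 changed sign. Sign also changed for copa, cope, rab2a and vps35 with the cardiomyocyte scaling, and for copa with the mean over probe sets. It changed for cope with median centring, and for cope and rab2a with quantile normalization and loess. The median, cardiomyocyte and spike-in scalings each add the same constant to every difference, so there the named genes move together. No paired analysis was possible because each group has 1 array. Without scanner files, signal over background is unknown.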

Other observations

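The 21 members that did not pass the level filter had values between 2.43 and 3.94 and whether they lay above background is unknown. They included 13 rab genes, such as rab25a, whose mammalian relative belongs to epithelial cells, at 2.93 in atropine and 2.78 in water, and rab3c, whose relatives act in regulated secretion, at 3.50 in atropine and 3.53 in water. The members among the 21 beyond a log2 difference of 0.32 were both higher in atropine. The share of all genes below the filter that did so was not computed. With no level filter 7 of 107 members were higher and 2 lower, beside 5.39% higher and 6.54% lower among all 8793 genes. The gene snx10a, an endosomal sorting nexin, stood at 3.73 in atropine and 3.31 in water. The HOPS gene vps39 stood at 3.77 in atropine and 3.38 in water. A dim probe set of copb2 stood at 3.17 in atropine and 3.86 in water, a difference of -0.68, while its 2 brighter probe sets differed by -0.23 and -0.10. These genes and the probe set were named after their values were seen.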
